A study of Homo sapiens with 20 samples.

Results

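Binding of HA-tagged POU2F3 was compared between NCI-H526 and NCI-H1048, established small cell lung cancer lines of the POU2F3-driven, tuft cell-like subtype (SCLC-P), in vehicle (DMSO) only. The members are all regions on chromosomes 1 to 22 and X of the 2 HA-antibody ChIP-seq peak lists, 56863 in NCI-H526 and 20151 in NCI-H1048, or 77014 of the 562708 regions in the 20 lists of the series. A region was called shared where it overlapped a region of the other line by at least 1 base. Per the study's methods both lines stably expressed Cas9, carried an sgRNA-resistant, lentiviral POU2F3 fused to a dTAG degron and HA, and had the endogenous gene knocked out, so neither line was an unmodified cell. Each line was represented by a single library, so a difference between the lines cannot be told apart from a difference between these libraries, and no test between them was possible.

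POU2F3, a transcription factor with a POU domain, specifies tuft cells, chemosensory epithelial cells that use taste-type signalling and secrete eicosanoids and acetylcholine. Its POU-specific domain and homeodomain together read the octamer, whose core is TTTGCAT, and the coactivators POU2AF2 and POU2AF3 bind the factor on that DNA. POU proteins can also sit as dimers on palindromic elements such as MORE (more palindromic Oct factor recognition element), on which the related coactivator POU2AF1 is known not to dock.

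The sequences below come from GRCh38 and show what the strongest regions of each class held. The first set gives regions found in both lines, chosen as the strongest regions with an octamer core, followed by regions of the POU2F3, AVIL and GFI1B genes. Capitals mark the core, read 5′ to 3′ on the strand named after the coordinates, on which it reads TTTGCAT.
SEC11C, 91.9 kb upstream, chr18:59047963-59048003 (minus strand): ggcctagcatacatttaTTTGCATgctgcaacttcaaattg
TRIB2, 522 kb downstream, chr2:13240242-13240282 (minus strand): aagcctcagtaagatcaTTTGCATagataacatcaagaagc
GRIK2, 1137 kb downstream, chr6:102813602-102813642 (plus strand): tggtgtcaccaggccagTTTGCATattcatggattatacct
POU2F3, intron, chr11:120255417-120255457 (plus strand): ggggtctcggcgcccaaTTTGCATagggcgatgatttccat
AVIL, promoter, chr12:57818757-57818797 (plus strand): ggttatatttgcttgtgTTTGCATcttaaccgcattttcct
GFI1B, intron, chr9:132977592-132977632 (minus strand): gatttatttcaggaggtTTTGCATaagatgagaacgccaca

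The second set gives octamer cores of strong regions called in NCI-H1048 alone, again with the core in capitals.
ENTREP2, intron, chr15:29403654-29403694 (minus strand): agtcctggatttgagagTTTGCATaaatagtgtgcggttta
OR14J1, 7.08 kb upstream, chr6:29294632-29294672 (minus strand): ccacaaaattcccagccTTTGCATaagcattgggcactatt
SEMA4D, intron, chr9:89435304-89435344 (minus strand): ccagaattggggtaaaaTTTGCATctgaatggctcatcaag

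The third set gives strong regions called in NCI-H526 alone, which held no octamer core within 100 bases of the summit but a MORE element or a variant of it that allows any base at 2 of its positions. Capitals mark that element, and the first 4 were aligned to each other because their flanks are alike.
RAC2, intron, chr22:37259235-37259286 (plus strand): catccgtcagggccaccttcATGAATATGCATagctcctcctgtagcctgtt
SLC4A5, intron, chr2:74317024-74317075 (plus strand): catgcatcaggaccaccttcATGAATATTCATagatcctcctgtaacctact
USP32, intron, chr17:60298181-60298232 (plus strand): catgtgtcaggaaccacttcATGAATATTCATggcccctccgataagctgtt
SMOC2, nearest TSS, intergenic, chr6:168906430-168906481 (minus strand): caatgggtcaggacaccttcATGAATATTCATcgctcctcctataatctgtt
STK32B, intron, chr4:5447936-5447975 (plus strand): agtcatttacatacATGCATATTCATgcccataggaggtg

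NCI-H526 had 2.82 regions for each NCI-H1048 region. Of the NCI-H526 regions, 9696 (17.1%, exact 95% binomial interval 16.7 to 17.4) overlapped a NCI-H1048 region and 47167 did not. Of the NCI-H1048 regions, 9714 (48.2%, 47.5 to 48.9) overlapped a NCI-H526 region and 10437 did not. Merged over both lists, 9643 of 67247 loci (14.3%) had a region in both lines, 70.1% in NCI-H526 alone and 15.5% in NCI-H1048 alone. These intervals, like those that follow, cover counting error only.

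The libraries were of like depth. The genome background, the mean number of fragments over a base, was 2.15 in NCI-H526 and 2.07 in NCI-H1048, at fragment lengths of 200 and 196 bases.

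Sharing followed the strength of a region in both lines. Fold here is the height of the summit over its local background, as the authors' caller gave it, with a median of 4.66 in NCI-H526 and 4.89 in NCI-H1048. With the list cut into 5 fold classes of equal size, from the weakest to the strongest, the share of NCI-H526 regions that overlapped NCI-H1048 was 5.83%, 9.06%, 12.6%, 19.6% and 38.2%. In NCI-H1048 the shares were 29.7%, 36.6%, 42.4%, 57.1% and 75.3%. At the top of the lists, 95 of the 100 strongest NCI-H1048 regions were shared (95%, 88.7 to 98.4), against 49 of the 100 strongest NCI-H526 regions (49%, 38.9 to 59.2). With NCI-H526 cut to its 20151 strongest regions, so that both lists had the same size, 30.6% of NCI-H526 and 30.8% of NCI-H1048 regions were shared.

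**Figure D1:**
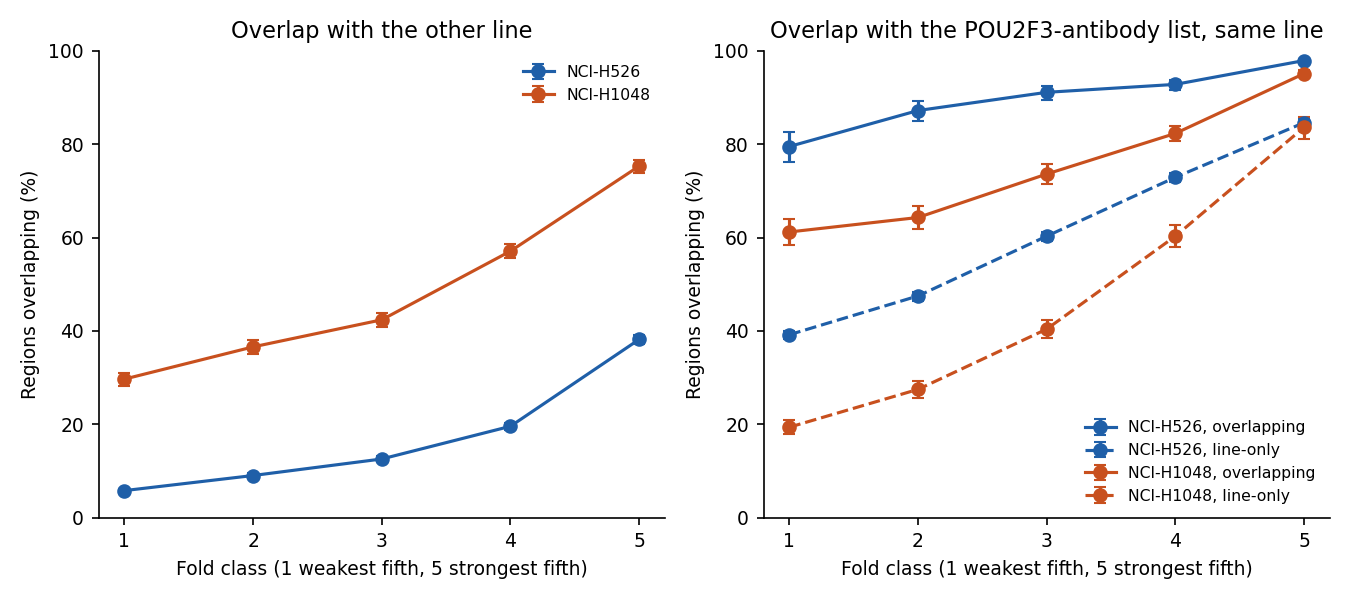
Percent of HA-POU2F3 regions (y axes) in each of 5 fold classes of equal size (x axes, weakest 1 to strongest 5), with exact 95% intervals as bars. The left panel gives the overlap with the other line, from 5.83% to 38.2% in NCI-H526 and from 29.7% to 75.3% in NCI-H1048, and the right panel the overlap with the POU2F3-antibody list of the same line for shared and line-only regions.

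At the 9696 shared regions the level of binding, taken as summit pileup over the genome background of the library, was a median of 1.20 times as high in NCI-H526 as in NCI-H1048 (quartiles 0.849 and 1.72). The level was higher in NCI-H526 at 64.3% of them, at least 2-fold higher in NCI-H526 at 1651 and at least 2-fold higher in NCI-H1048 at 440 (4.54%). Across these regions the Spearman rank correlation of the levels was 0.360, given as a description since the regions share their libraries. The summits of the paired regions lay a median of 50 bases apart.

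**Figure D2:**
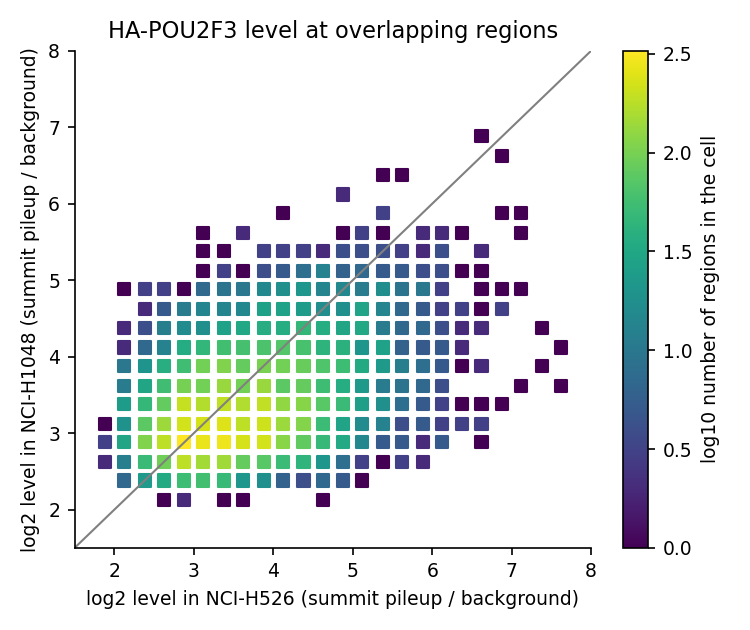
Levels of HA-POU2F3 at the 9696 shared regions, with log2 level in NCI-H526 on the x axis, log2 level in NCI-H1048 on the y axis and the log10 number of regions in each cell as colour. More regions lie below the line of equality than above it, with 64.3% higher in NCI-H526.

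Shared regions were more often at promoters than regions of 1 line. Within 1 kb of a protein-coding transcription start site (TSS) lay 22.6% of shared regions (21.8 to 23.4), 17.3% of NCI-H526-only regions (16.9 to 17.6) and 7.61% of NCI-H1048-only regions (7.11 to 8.13). Among regions with a −log10 q of at least 5 the first 2 shares changed order, to 16.5% and 19.6%. Introns held 34.8%, 36.6% and 39.3% of these classes and intergenic sequence 41.1%, 44.2% and 51.4%. Seen from NCI-H1048, 73.5% of its 2992 promoter regions were shared, against 45.2% of its intronic and 42.7% of its intergenic regions. In NCI-H526 21.2% of promoter and 16.3% of intronic regions were shared. The median distance to the nearest protein-coding TSS was 31.1 kb for shared, 37.5 kb for NCI-H526-only and 58.3 kb for NCI-H1048-only regions.

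The POU2F3 antibody had been used on DMSO-treated cells of both lines in separate libraries, which the definition of the classes did not use. Of shared regions, 93.3% overlapped a POU2F3-antibody region in NCI-H526, and on the NCI-H1048 side 79.5% overlapped one in NCI-H1048. Of NCI-H526-only regions 58.7% overlapped the NCI-H526 antibody list, and of NCI-H1048-only regions 39.0% overlapped the NCI-H1048 list. The share grew with fold, to 84.6% and 83.6% of the NCI-H526-only and NCI-H1048-only regions in the strongest class of their list.

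A region called in 1 line with the HA antibody was not always bare in the other line. The NCI-H1048 antibody list held 18.3% of the NCI-H526-only regions, and the NCI-H526 antibody list held 33.3% of the NCI-H1048-only regions. Support from the antibody list of the own line alone was found for 43.0% of NCI-H526-only regions and 18.6% of NCI-H1048-only regions. Neither antibody list held 38.7% and 48.1% of these classes, whose median folds were 4.10 and 4.24. The antibody lists differed in size in the same direction, at 89850 regions in NCI-H526 and 38034 in NCI-H1048.

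Over whole classes the octamer was most frequent in shared regions, while in NCI-H1048 shared and line-only regions were close among the strongest regions and among those also found with the POU2F3 antibody. A core lay within 100 bases of the summit in 59.7% of shared regions (58.7 to 60.7), 30.6% of NCI-H526-only regions (30.2 to 31.0) and 44.6% of NCI-H1048-only regions (43.7 to 45.6). With NCI-H526 cut to the size of the NCI-H1048 list, the share of NCI-H526-only regions was 43.4%. In flanking windows of equal width, centred 2 kb away on each side, shared regions had the core in 5.10%, so that the summits held it 11.7 times as often. The ratio to the flanks was 6.07 for NCI-H526-only and 7.89 for NCI-H1048-only regions. Clusters of cores separated the classes further: 17.9% of shared regions had 2 or more cores, against 3.52% and 8.33% of the NCI-H526-only and NCI-H1048-only regions.

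Outside promoters the order was the same, at 72.2% of shared, 35.9% of NCI-H526-only and 47.3% of NCI-H1048-only regions. At promoters the core was present in 16.8%, 5.14% and 11.6%. Line-only regions with a POU2F3-antibody region in the own line held it more often than those without, at 40.3% against 16.8% in NCI-H526 and 66.1% against 30.9% in NCI-H1048. Shared regions with one held it at 61.3% in NCI-H526 and at 64.9% in NCI-H1048. In the strongest fold class of NCI-H1048 the shares were 82.1% of shared and 80.5% of NCI-H1048-only regions, and in that of NCI-H526 72.5% of shared and 46.4% of NCI-H526-only regions.

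**Figure D3:**
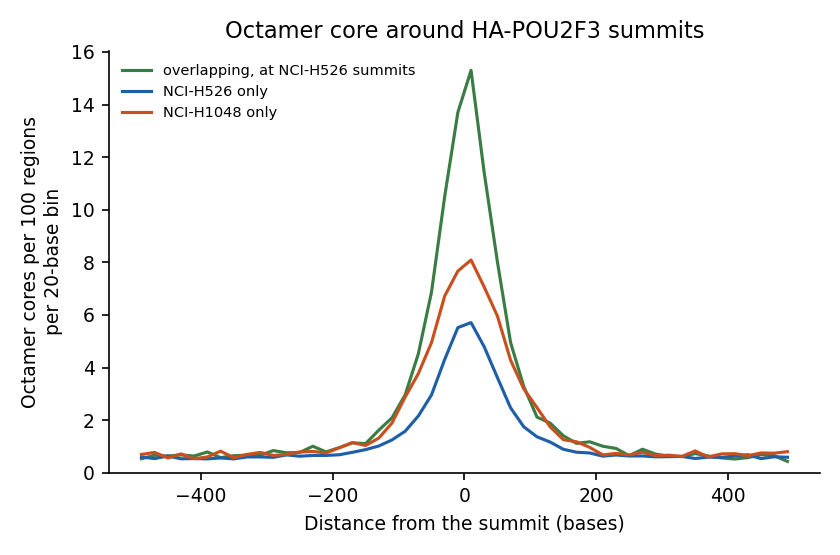
Octamer cores per 100 regions in 20-base bins (y axis) by distance from the HA-POU2F3 summit in bases (x axis), for shared, NCI-H526-only and NCI-H1048-only regions. All 3 classes peak at the summit, with the shared class highest at 15.3 cores per 100 regions in its highest bin.

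The strongest line-only regions were of different kinds. Among the 100 strongest NCI-H1048-only regions, 84 held the octamer core and 1 held MORE or its variants, and among the 100 strongest shared regions by NCI-H1048 fold 87 and 3 did. Among the 100 strongest NCI-H526-only regions, 23 held the core and 38 held MORE or its variants. Among the 100 strongest shared regions by NCI-H526 fold, 63 held the core and 17 MORE or its variants. Among the strongest 20 the counts for MORE or its variants were 0 of 20 in NCI-H1048-only regions, which allows a share of up to 16.8% by the exact interval, 6 of 20 in shared regions and 12 of 20 in NCI-H526-only regions (60%, 36.1 to 80.9). The pattern with 2 free positions was added after the 6-base words of the classes had been compared.

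Over all regions of a class the element was rare. It was present in 1.44% of NCI-H526-only regions (678 of 47167, 1.33 to 1.55), 0.619% of shared regions and 0.105% of NCI-H1048-only regions (11 of 10437, 0.0526 to 0.189). Against their own flanks these shares were 18.6, 6.22 and 1.45 times as high.

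**Figure D4:**
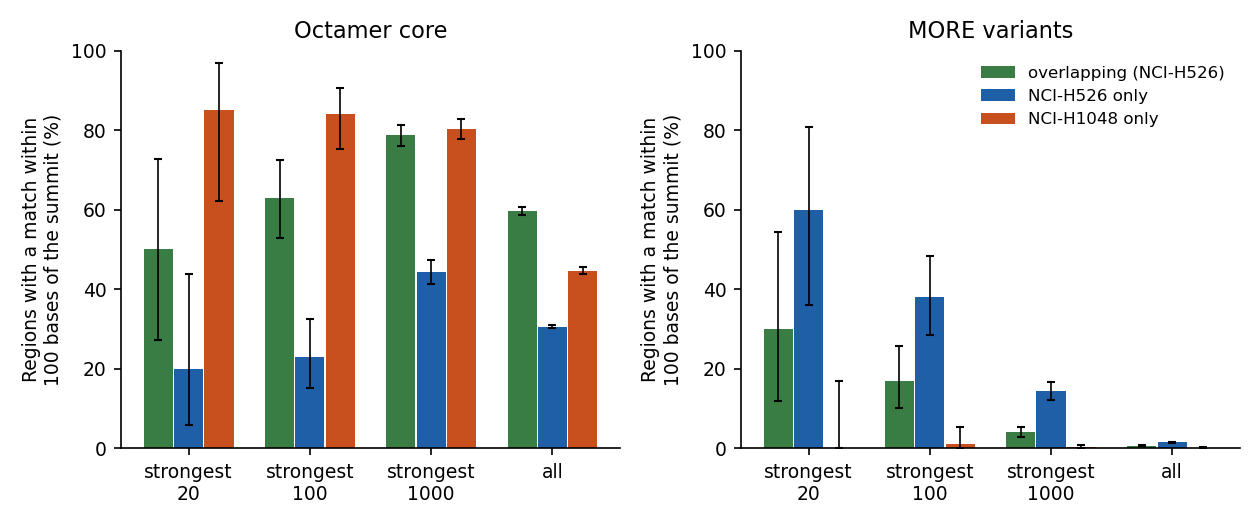
Percent of regions (y axes) with an octamer core (left) and with MORE or its variants (right) within 100 bases of the summit, for the 20, 100 and 1000 strongest and all regions of each class (x axes), with exact 95% intervals as bars. The 20 strongest NCI-H526-only regions held MORE or its variants in 60% and the octamer core in 20%, and the NCI-H1048-only regions in 0% and 85%.

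Regions of the coactivator were less frequent where MORE stood alone than where the octamer core did, and were scarce at NCI-H526-only regions with MORE alone. HA-POU2AF2, mapped in NCI-H526 in another library, overlapped 3.60% (21 of 584, 2.24 to 5.44) of the NCI-H526-only regions with MORE or its variants and no octamer core, and 36.0% (35.2 to 36.8) of those with the octamer core alone. Among shared regions it overlapped 14 of 37 with MORE or its variants and no core (37.8%, 22.5 to 55.2) and 74.4% of those with the core alone. The POU2F3 antibody in NCI-H526 overlapped 52.9% and 77.5% of these NCI-H526-only groups, and 50.5% of NCI-H526-only regions with neither element. Antibody overlap with MORE alone was thus near that of regions with neither. The NCI-H526-only regions with MORE alone had a median fold of 6.17, against 4.92 with the octamer core alone and 4.30 with neither. In the POU2F3-antibody lists themselves, the element was present in 41 of the 1000 strongest regions of NCI-H526 (4.10%, 2.96 to 5.52), in 15 of the 1000 strongest of NCI-H1048 (0.842 to 2.46%) and in 4 of the 1000 strongest HA-POU2AF2 regions (0.400%, 0.109 to 1.02).

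Part of the MORE regions had flanks like those of another. Of the 584 NCI-H526-only regions with MORE or its variants and no octamer core, 105 (18.0%, 14.9 to 21.3) had another such region with at least 70% identity over the 80 bases that flank the element. Among the 600 strongest octamer regions of each class the count was 50 for NCI-H526-only, 69 for shared and 88 for NCI-H1048-only regions, or 8.33%, 11.5% and 14.7%. The MORE and octamer shares are not alike in kind. MORE flanks were compared in both orientations and over all such regions, octamer flanks in a single orientation. The largest group linked at this identity, directly or through other regions, had 63 regions on 22 chromosomes. Its median fold was 9.01, against 6.04 for the other MORE regions. Of these 63, 35 overlapped a POU2F3-antibody region in NCI-H526, 3 one in NCI-H1048 and 1 an HA-POU2AF2 region. The RAC2, SLC4A5, USP32 and SMOC2 sequences printed above belong to this group, and their folds were 26.9, 20.9, 20.7 and 20.6. Identity to the RAC2 flanks was 85% for SLC4A5, 65% for USP32 and 68.8% for SMOC2. The USP32 and SMOC2 regions were thus linked to that of RAC2 only through other regions. The identity threshold was set after the RAC2 sequence had been seen to resemble another.

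Other sequence elements differed between the line-only classes outside promoters. NCI-H526-only regions held more E-boxes, the sites of basic helix-loop-helix factors: CAGATG was present in 17.4% against 11.9% of NCI-H1048-only regions, CACCTG in 17.5% against 9.64% and CAGCTG in 10.2% against 5.62%. NCI-H1048-only regions held more of AGATAA, the GATA site, at 18.7% against 14.5%, and of AACAAT, a SOX site, at 19.1% against 14.4%. Base composition moved with these shares, with a median GC content within 100 bases of the summit of 38.8% in NCI-H526-only and 36.8% in NCI-H1048-only regions outside promoters, and its part in them was not tested. Over whole classes, promoters included, the ratios to the flanks were closer to even than those of the octamer. In NCI-H526-only and NCI-H1048-only regions they were 1.23 and 0.963 for CAGATG, 1.14 and 0.725 for CACCTG and 1.45 and 0.894 for CAGCTG. For AGATAA they were 0.870 and 1.18, and for AACAAT 0.886 and 1.14. The RUNX site AACCACA went with the octamer in both lines. Outside promoters it was present in 16.6% of NCI-H526-only regions with a core against 4.57% of those without. In NCI-H1048-only regions outside promoters the shares were 14.8% and 6.26%. The first 2 E-boxes were searched after the 6-base words had been compared, and all patterns were read on both strands.

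By the order of the lower of both percentile ranks, the 5 strongest shared regions lay nearest to the TSSs of TUBA3C, KDM2B, SEC11C, TRIB2 and GRIK2. The first 2 held no octamer core, had folds of 31.7 and 27.0 in NCI-H526 and of 31.0 and 22.1 in NCI-H1048, and overlapped regions in 8 and 6 of the 8 other DMSO lists of the series, which include lists of other proteins in myeloma lines. The other three held a core, and each overlapped regions in 4 of these lists. Their folds in NCI-H526 were 24.1 at SEC11C, 20.9 at TRIB2 and 21.6 at GRIK2, and 19.4, 16.7 and 16.6 in NCI-H1048.

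The 5 strongest NCI-H526-only regions lay nearest to the TSSs of RAC2, CFAP157, MYEOV, PAXIP1 and EVC2, with folds of 26.9, 26.7, 26.6, 25.4 and 25.3, which rank 3 to 7 of all NCI-H526 regions. Those of RAC2 and MYEOV lay inside introns of these genes, and those of PAXIP1 and EVC2 inside introns of DPP6 and STK32B. All 5 overlapped a POU2F3-antibody region in NCI-H526, and those of CFAP157, MYEOV and PAXIP1 also overlapped one in NCI-H1048. The 5 strongest NCI-H1048-only regions lay nearest to HTR5A, ENTREP2, OR14J1, SEMA4D and DIO3, those of ENTREP2 and SEMA4D inside introns of these genes, with folds of 14.8, 14.3, 14.3, 14.1 and 13.7, which rank 51 to 98 of all NCI-H1048 regions. All 5 overlapped a POU2F3-antibody region in NCI-H1048, and that of ENTREP2 also overlapped one in NCI-H526.

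Regions were assigned to protein-coding genes by a window of the gene body and 10 kb upstream. Of 19962 genes, 70.5% had a region in NCI-H526 and 35.9% in NCI-H1048, 32.8% had one in both lines, 37.7% in NCI-H526 alone and 3.10% in NCI-H1048 alone, and 24.6% had a region that overlapped between the lines. With the same number of regions in both lists, NCI-H526 reached 37.6% of genes.

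Genes of the POU2F factors and their coactivators (6 genes) all had shared regions, against 24.6% of all genes. Their median window was 103 kb long, against 37.5 kb for all genes, and the part of this length was not tested. At POU2F3 itself NCI-H526 had 7 regions and NCI-H1048 6, and all 6 NCI-H1048 regions were shared. The strongest, in an intron 15.3 kb from the TSS, had a fold of 9.90 in NCI-H526 and 10.8 in NCI-H1048. Its level was 73.1 in NCI-H526 and 40.2 in NCI-H1048, beside a local background of 6.97 and 3.27 times the genome background. The regions at both annotated POU2F3 promoters had levels of 61.5 and 66.1 in NCI-H526 and of 28.5 and 27.6 in NCI-H1048. The levels were thus higher in NCI-H526 at the promoters and the strongest site, with folds that differed less. None of the POU2F3 regions was classed as exonic.

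POU2AF2 had its strongest region at its promoter in both lines, with folds of 9.05 in NCI-H526 and 8.28 in NCI-H1048 and 2 octamer cores. POU2AF3 had its strongest region in an intron, with folds of 6.75 and 7.42. POU2AF1, the coactivator known from B cells, had its strongest region at different places, at a fold of 7.16 in NCI-H526 17.9 kb upstream of the nearest annotated TSS and of 7.65 in NCI-H1048 10.9 kb downstream. Each of these POU2AF1 regions was shared, so both places had a region in both lines. POU2F2, also known from B cells, had its strongest region at a promoter in both lines, with folds of 13.4 and 9.90. POU2F1, which is expressed broadly, had its strongest NCI-H526 region at 1 promoter with a fold of 12.3. NCI-H1048 had no HA-POU2F3 region there, but its POU2F3-antibody list had one. The strongest NCI-H1048 region of POU2F1 lay at another promoter with a fold of 7.60 and was shared.

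Tuft cell genes had a region more often than genes in general in both lines, and their strongest regions mostly held the octamer. Of 48 genes in 4 lists, 42 (87.5%) had a region in NCI-H526 and 31 (64.6%) in NCI-H1048. All 31 also had one in NCI-H526, 11 (22.9%) had one in NCI-H526 alone, against 37.7% of all genes, and 0 in NCI-H1048 alone. A region overlapped between the lines at 27 genes (56.2%), against 24.6% of all genes. With lists of the same size, 32 tuft genes had a region in NCI-H526 (66.7%), near the 31 of NCI-H1048.

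Counts alone did not set these genes apart from housekeeping genes, of which 16 of 16 had a region in NCI-H526, 10 of 16 (62.5%) in both lines and 9 (56.2%) a region that overlapped. What the strongest region of a gene held was compared after these counts had been seen. In NCI-H1048 it held an octamer core at 24 of 31 tuft genes (77.4%), at 2 of 10 housekeeping genes (20%) and at 43.8% of all genes with a region. In NCI-H526 the counts were 24 of 42 (57.1%) and 2 of 16, and the share of all genes with a region was 26.2%. The receptor, epithelial, mesenchymal and neuroendocrine lists described below had shares of 53.8%, 55.6%, 60% and 50% in NCI-H1048. Their shares in NCI-H526 were 46.7%, 37.5%, 30% and 13.3%. The T cell and hepatocyte lists had 1 of 2 and 0 of 2 genes in NCI-H1048, and 0 of 7 and 2 of 7 in NCI-H526. The strongest region lay at a promoter at 25.8% of tuft genes with a region in NCI-H1048, against 80% of housekeeping genes and 41% of all genes. In NCI-H526 these shares were 33.3%, 75% and 54.5%. The median fold of the strongest region was 7.19 at tuft genes, 4.94 at housekeeping genes and 5.08 over all genes in NCI-H1048, and 7.21, 7.54 and 5.40 in NCI-H526. At receptor genes it was 6.10 in NCI-H1048 and 7.31 in NCI-H526. The median window was 35.9 kb long for tuft genes and 37.5 kb for all genes.

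Among lineage factors, 8 of 12 genes (66.7%) had regions in both lines, against 32.8% of all genes. By the lower of both percentile ranks, the first beside POU2F3 were ZFHX3, a homeobox factor (fold 10.0 in NCI-H526 and 16.4 in NCI-H1048), NREP (11.0 and 8.50), and GFI1B, a zinc finger repressor (8.33 and 8.50). RUNX1, a factor whose sites also accompanied the octamer above, had 42 regions in NCI-H526 and 19 in NCI-H1048, of which 12 in NCI-H526 were shared. Its strongest NCI-H526 region had the highest fold of the list in that line, ranking 224 of all NCI-H526 regions, and its strongest NCI-H1048 region a fold of 8.29. RUNX1 (chromosome 21, 34787801 to 36004667) and ZFHX3 (chromosome 16, 72782885 to 73891871) are long, against a median window of 37.5 kb over all genes. The part of this length in their counts and strongest folds was not tested. The GFI1B window had 5 regions in NCI-H526 and 3 in NCI-H1048, and all 3 were shared. ASCL2, a basic helix-loop-helix factor of stem and tuft cells, had a shared region at its promoter, without an octamer core, with folds of 4.03 and 4.71. SOX9 had a region in NCI-H526 alone (3.85).

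Eicosanoid enzymes had regions in both lines at 6 of 8 genes (75%, against 32.8% of all genes). TBXAS1, thromboxane synthase, led with folds of 11.6 and 10.5, followed by PLA2G4A, the phospholipase that releases arachidonic acid (9.45 and 7.26). PTGS1, the constitutive cyclooxygenase of tuft cells, had 1 region in each line that did not overlap: in NCI-H526 12.7 kb from the TSS with a fold of 8.58 and no octamer core, and in NCI-H1048 1.04 kb from the TSS with a fold of 7.12 and a core. Both regions overlapped a POU2F3-antibody region in each line. ALOX5, the 5-lipoxygenase, had shared regions with strongest folds of 6.37 and 8.61, while ALOX5AP, its activating protein, had 4 regions in NCI-H526 and 0 in NCI-H1048.

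Chemosensory genes had regions in NCI-H526 at 12 of 12 and in NCI-H1048 at 7 (58.3%), against 70.5% and 35.9% of all genes. A region in NCI-H526 alone was found at 5 (41.7%), near the 37.7% of all genes. SUCNR1, the succinate receptor, had a shared promoter region with 2 octamer cores, with folds of 12.8 and 9.70 and levels of 59.6 and 29.5. PLCG2, a phospholipase, had strongest folds of 8.97 and 7.38, GNAT3, the taste G protein gustducin, of 9.64 and 7.19, and ITPR3, the calcium channel of the same cascade, of 7.54 and 6.25. TRPM5, the cation channel at its end, had 4 regions in NCI-H526 with a strongest fold of 6.09 and 0 in NCI-H1048. TAS1R3 (4.84) and GNB3 (4.72) had regions in NCI-H526 alone.

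Markers and effectors had regions in both lines at 10 of 16 genes (62.5%, against 32.8% of all genes). In NCI-H526 alone 4 had one (25%, against 37.7%). HTR3E, a serotonin receptor subunit, had a single shared region at its promoter with folds of 12.6 and 10.2. SH2D7 had strongest folds of 8.28 and 7.17, and IRAG2 had 9 regions in NCI-H526 and 5 in NCI-H1048. AVIL, encoding the actin-binding protein advillin, had a shared promoter region of 6.82 and 7.33. DCLK1, a kinase used as a tuft cell marker, had 7 regions in NCI-H526 (strongest 7.64) and 0 in NCI-H1048, SH2D6 had 4 (7.47) and VIL1, the microvillus protein villin, had 1 (4.77).

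The POU2F3-antibody lists were read over the windows of the 11 genes with a HA-POU2F3 region in NCI-H526 alone. Each window had an antibody region somewhere in NCI-H526, and 4 had one in NCI-H1048. Over all 48 tuft genes 44 and 35 windows did. The share of all protein-coding genes is not given, so these antibody counts do not set tuft genes apart from other genes. The only HA-POU2F3 regions of GNG13 and VIL1 did not overlap an antibody region of either line. DCLK1, TRPM5 and ALOX5AP had no antibody region in NCI-H1048. ALOX5AP and DCLK1 lie on chromosome 13 and GNG13 on chromosome 16, where NCI-H1048 had few regions overall. The other 2 tuft genes on these chromosomes, PLCG2 and ZFHX3 on chromosome 16, had regions in both lines.

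**Figure D5:**
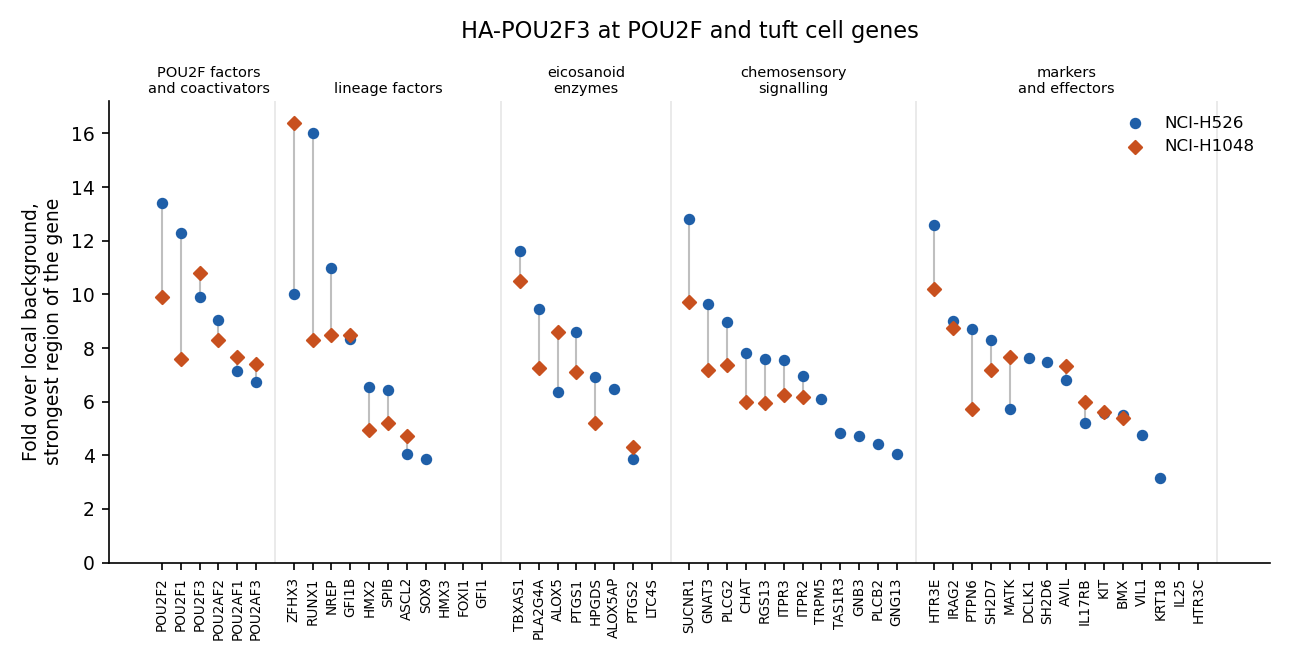
Fold over local background of the strongest HA-POU2F3 region (y axis) in the window of POU2F, coactivator and tuft cell genes (x axis, by list), with circles for NCI-H526, diamonds for NCI-H1048 and no symbol where no region was called. No gene shown has a diamond alone, and ZFHX3 has the highest diamond at 16.4 beside a circle at 10.0.

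The lines differed unevenly along the genome. Regions of NCI-H526 per region of NCI-H1048 were 2.82 over all, 6.80 on chromosome 16 and 5.46 on chromosome 13, and 1.67 on chromosome 10. In the POU2F3-antibody lists these ratios were 2.36, 4.11, 4.44 and 1.51. The first 35 Mb of chromosome 16 had 536 regions in NCI-H526 and 52 in NCI-H1048. Its first 5 Mb had 112 and 1, where the POU2F3-antibody lists had 129 and 43. A few places went the other way, and among 5 Mb bins with at least 50 regions in both lists together the one with the fewest NCI-H526 regions per NCI-H1048 region was chromosome 5 from 55000001 to 60000000, with 22 and 53. The number of copies of these chromosomes in each line was not measured, and its part in the ratios was not tested.

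Of the 5 genes with the most regions in NCI-H526 and none in NCI-H1048, 3 lie on chromosomes 13 and 16. RBFOX1 on chromosome 16, a neuronal splicing factor, had 30 regions, MTUS2 on chromosome 13 had 23, SNX29 on chromosome 16 had 19, ASIC2 had 18 and CDH4 had 15. These genes are long, at 2474, 686, 598, 1162 and 688 kb, against a median window of 37.5 kb over all genes. Chromosome 16 had 12.6 NCI-H526 regions per Mb. The counts of both lines were not scaled for gene length, and its part in them was not tested. Of the RBFOX1 regions, 14 overlapped the POU2F3-antibody list of NCI-H526 and 0 that of NCI-H1048. Genes with the most regions in NCI-H1048 and none in NCI-H526 had fewer: ABCA13 had 8, RGS7 had 6 and ARMC9 and ZMAT4 had 4. Of the ABCA13 regions, 3 overlapped the POU2F3-antibody list of NCI-H1048 and 1 that of NCI-H526.

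Runs of regions at most 12500 bases apart were counted in lists that differ 2.82-fold in size, and the part of that size in the counts was not tested. Runs with 5 or more regions numbered 402 in NCI-H526 and 16 in NCI-H1048, holding 4.10% and 0.457% of the regions, and 257 and 16 of them contained a region of the other line. The longest in NCI-H526 were at RALGAPA2 with 13 regions and at FAT3 and EPHA7 with 11 each. Runs of 11 regions each at NBAS and DDX1 and at MYCN on chromosome 2 had a local background of 35.6 and 25.1 times the genome background and no region of NCI-H1048, with strongest folds of 4.03 and 2.91. In NCI-H1048 the longest was a run of 14 regions on chromosome 4 from 49092669 to 49154732, next to the centromere and with a local background of 5.42, followed by ZFHX3 and HMCES with H1-10 with 6 each.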

How the data were processed

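HA-antibody ChIP-seq peak lists of HA-POU2F3 in NCI-H526 and NCI-H1048 cells treated with DMSO were compared, with 1 library per line. Per the methods and labels, reads were trimmed by the authors with Trimmomatic (0.39), mapped to GRCh38 with BWA and cleared of duplicates with Picard. Peaks were called with MACS2 (q-value 0.05), for which no control is named, and blacklisted regions were removed. The deposited lists give the authors' fold ratio of the summit over its local background, −log10 p and q values, a score derived from q, and the position of the summit as an offset from the region's start. Both lines were grown in RPMI with serum, and the time in DMSO is not given for these libraries. Lists of other proteins and of the POU2F3 antibody were used as described.

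Regions on other sequences (0.323% and 1.00%) were left out. The whole-number summit pileup was recovered from fold and p to a tolerance of 0.002 in −log10 p for 100% of regions, and divided by the library's background pileup to give the level, so values are scaled for depth. Overlap, pileup and motif steps were tested on simulated data. Genes and TSSs were those of GENCODE 44. Shares have exact 95% Clopper-Pearson intervals, computed with scipy (1.17.1). No p-value was computed, since peaks are not replicates. Motifs were counted in sequence read with pysam (0.24.0).

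The members, gene lists and rules were chosen with earlier results of these data known. Genes named were the POU2F factors and coactivators, AVIL, PTGS1, ASCL2 and GFI1B, up to 4 genes per tuft list with regions in both lines and 3 with regions in 1 line, the 5 strongest regions per class, the 5 genes with most regions in 1 line, the 3 longest runs per line, and up to 3 genes per class of the other lists. SLC4A5, USP32, SMOC2, the MYCN runs and any other gene outside this rule were chosen after their values were seen. A few genes and 1 sequence that these rules name are not reported here. Alternatives were stricter q-values, other overlap rules, equal list sizes, other promoter, motif and gene windows, the Y chromosome, the POU2F3 antibody, and lists without chromosomes 2, 13 and 16, the last chosen after seeing the data.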

Additional observations from a re-analysis of the deposited data

How the results depend on the processing

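Each line had 1 library, so leaving out a replicate was not done. No paired analysis was possible because the groups have 1 library each and no test was made. The lists without 3 chromosomes, the octamer outside promoters and the equal list size for promoters and octamers were chosen after seeing the data. The shares below moved by more than their counting interval.

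The share of NCI-H526 regions that overlapped NCI-H1048 (17.1%) was 17.7% at a −log10 q of at least 5 in both lists, 13.1% with at least 50% of the region covered, 15.4% for summits within 200 bases, 30.6% with the same number of strongest regions, 23.8% in the POU2F3-antibody lists and 17.7% without chromosomes 2, 13 and 16. The share of NCI-H1048 regions (48.2%) was 53.6%, 44.3%, 43.3%, 30.8% and 56.6% under the first 5 of these.

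Promoter shares of shared regions (22.6%) were 26.0% within 3 kb, 28.5% with the TSSs of all genes and 16.5% at the stricter q. For NCI-H526-only regions (17.3%) they were 20.7%, 22.8% and 19.6%, and 14.2% with the same number of strongest regions. For NCI-H1048-only regions (7.61%) they were 11.0% and 12.4%. At the stricter q the order of shared and NCI-H526-only regions was turned.

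The octamer core in shared regions (59.7%) was at 46.0% within 50 bases, 49.0% as the full octamer, 69.1% at the stricter q and 72.2% outside promoters. In NCI-H526-only regions (30.6%) it was at 21.3%, 22.4%, 38.2% and 35.9%, and 43.4% with the same number of strongest regions. In NCI-H1048-only regions (44.6%) it was at 30.8%, 34.2%, 64.5% and 47.3%.

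Of 48 tuft genes, those with a NCI-H1048 region (31) numbered 19 within 2 kb of a TSS, and those with a NCI-H526 region (42) numbered 33 there. The other 11 of 45 recomputed values were within the interval, or within 1.5 times for counts.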

Other observations

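Neuroendocrine genes, which mark other small cell lung cancer subtypes, had regions in both lines at 6 of 21 (28.6%, against 32.8% of all genes) and in NCI-H526 alone at 9 (42.9%, against 37.7%). NEUROD2 (fold 12.4 in NCI-H526 and 6.73 in NCI-H1048), NCAM1 (8.90 and 7.47) and SYT1 (7.92 and 8.21) were bound in both lines, and DLL3, a Notch ligand, had 2 regions in NCI-H526 alone with a strongest fold of 12.2.

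Receptor genes had regions in both lines at 12 of 18 (66.7%, against 32.8% of all genes). A region overlapped between the lines at 11 (61.1%, against 24.6%). Their median window was 86.2 kb, against 37.5 kb for all genes. IL13RA1, a subunit of the receptor for interleukin-13, had folds of 11.7 and 9.25 and FGFR2 of 9.53 and 10.6. IL4R had a region in NCI-H526 alone (8.28) and EGFR had 2 in NCI-H1048 alone (strongest 6.10).

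Epithelial genes had regions in both lines at 8 of 20 (40%), led by GRHL2 (19.9 and 7.83), EHF (10.8 and 9.04) and ELF3 (10.2 and 9.90), transcription factors of epithelial cells. KRT7 had 2 regions in NCI-H1048 alone and KRT8 3 in NCI-H526 alone (6.59). Mesenchymal genes had regions in both lines at 4 of 20 (20%), among them ZEB2 (7.25 and 9.54). T cell genes had regions in both at 2 of 13 (15.4%) and hepatocyte genes at 1 of 12 (8.33%), against 10 of 16 housekeeping genes. The share over all genes was 32.8%. Median windows were 47.7 kb for epithelial, 52.3 kb for mesenchymal, 36.3 kb for T cell, 22.7 kb for hepatocyte and 34.7 kb for housekeeping genes. The part of window length in the counts of these lists was not tested.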
